A study of Mus musculus with 6 samples.

Results

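Glucocorticoid hormone acts on fat through the glucocorticoid receptor, and 7 genes of that pathway were followed in the adipose of mice aged 32 weeks whose mothers differed in diet. They are Nr3c1, which encodes the receptor, Hsd11b1, which encodes the enzyme that regenerates active hormone inside the cell, and the target genes Fkbp5, Tsc22d3, Klf9, Zbtb16 and Sgk1. They are 7 of 22180 genes measured. Probe sets were taken whose platform annotation gives a single symbol equal to the gene's name, and where a gene had several, its probe set was to be chosen by the mean value over the 6 arrays. Each of the 7 genes had 1 such probe set, so that step decided nothing. The 7 genes themselves were named with earlier results of these arrays in view.

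The study compared offspring of dams fed a chromium restriction diet (3 samples) with offspring of dams fed a control diet (3 samples), using total RNA labelled with biotin and 1 array per sample. Chromium is a metal needed, if at all, in trace amounts. The labels give no strain, sex, fat depot or offspring diet, and do not say whether the 3 samples of a group came from separate animals or litters, so a p-value here measures only the spread between these samples. Values are on a scale taken to be log2, on which a difference of 1 is a doubling; group means carry an SD with n = 3 per group, and differences are restriction minus control with the standard error (SE) from limma.

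Without hormone the receptor is held in the cytoplasm by the chaperone Hsp90 and its partner proteins. With hormone it enters the nucleus, binds DNA, most strongly at paired copies of a short element, and raises or lowers transcription of nearby genes. In adipose tissue glucocorticoids are known for promoting fat cell differentiation, changing lipid storage and release, and opposing insulin. The enzyme 11beta-hydroxysteroid dehydrogenase type 1, the product of Hsd11b1, makes the local hormone level in fat partly independent of that in blood.

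To show what letters lie next to these genes, the 250 bases before annotated start sites were taken from a supplied set of RefSeq promoters (GRCm38.p6). That set held 5 of the 7 genes and lacked Nr3c1 and Zbtb16. The full palindromic glucocorticoid response element was searched as AGAACA, any 3 bases and TGTTCT, its single arm as AGAACA, and the E-box, the element bound by clock and other helix-loop-helix factors, as CACGTG, each on both strands. Sgk1 is shown because 1 of its 6 start sites carries the full element (capitals), 189 to 175 bases before the start. Fkbp5 is shown for its E-box (capitals), and Klf9 because it had the smallest p of the 7 genes and none of the 3 motifs in this window.
Sgk1, chr10:21993640-21993889, plus strand: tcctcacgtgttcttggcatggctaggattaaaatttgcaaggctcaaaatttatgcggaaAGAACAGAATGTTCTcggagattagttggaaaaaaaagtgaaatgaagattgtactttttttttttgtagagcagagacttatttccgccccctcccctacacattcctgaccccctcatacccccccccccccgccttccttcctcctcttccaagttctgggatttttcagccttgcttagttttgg
Fkbp5, chr17:28486150-28486399, minus strand: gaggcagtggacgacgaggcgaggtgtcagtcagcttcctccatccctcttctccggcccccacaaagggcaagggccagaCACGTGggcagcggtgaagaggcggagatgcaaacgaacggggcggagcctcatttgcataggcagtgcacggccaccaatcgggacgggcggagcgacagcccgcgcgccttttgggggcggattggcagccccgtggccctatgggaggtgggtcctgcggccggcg
Klf9, chr19:23140976-23141225, plus strand: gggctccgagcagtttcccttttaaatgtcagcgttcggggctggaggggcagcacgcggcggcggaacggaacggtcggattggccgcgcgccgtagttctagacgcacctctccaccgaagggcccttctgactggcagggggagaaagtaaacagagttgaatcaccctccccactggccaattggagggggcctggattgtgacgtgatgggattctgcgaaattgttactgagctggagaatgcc

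The full element was in 3 of 32851 promoters of this length (0.00913%), the single arm in 16.1% and the E-box in 6.02%. The Sgk1 window also held an E-box 246 to 241 bases before the start, which overlaps a further single arm at 242 to 237. The Fkbp5 E-box lay 169 to 164 bases before the start. Among the other members, 1 of 3 Tsc22d3 start sites had a single arm, 185 bases before the start, and Hsd11b1 had none of the 3 motifs. A match is a description of letters and does not show that a factor binds there.

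At an adjusted p of 0.05 in limma (Benjamini-Hochberg over all 22180 genes), 0 of the 7 genes passed, against 0.194% of all genes; 3 had an unadjusted p under 0.05. The arrays of Klf9 and Fkbp5 did not overlap between the diets. Those of the other genes did, among them Zbtb16, the receptor and its activating enzyme. For Klf9 and Fkbp5 every restriction array lay below every control array, a pattern found in 6.06% of all genes. The 3 genes with an unadjusted p under 0.05 were Klf9, Fkbp5 and Zbtb16, all lower; 3.53% of all genes were lower at that p. The median log2 difference was -0.14 over the 7 genes and -0.02 over all genes. In bulk tissue, fewer cells of a type and less RNA per cell cannot be told apart.

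**Figure D1:**
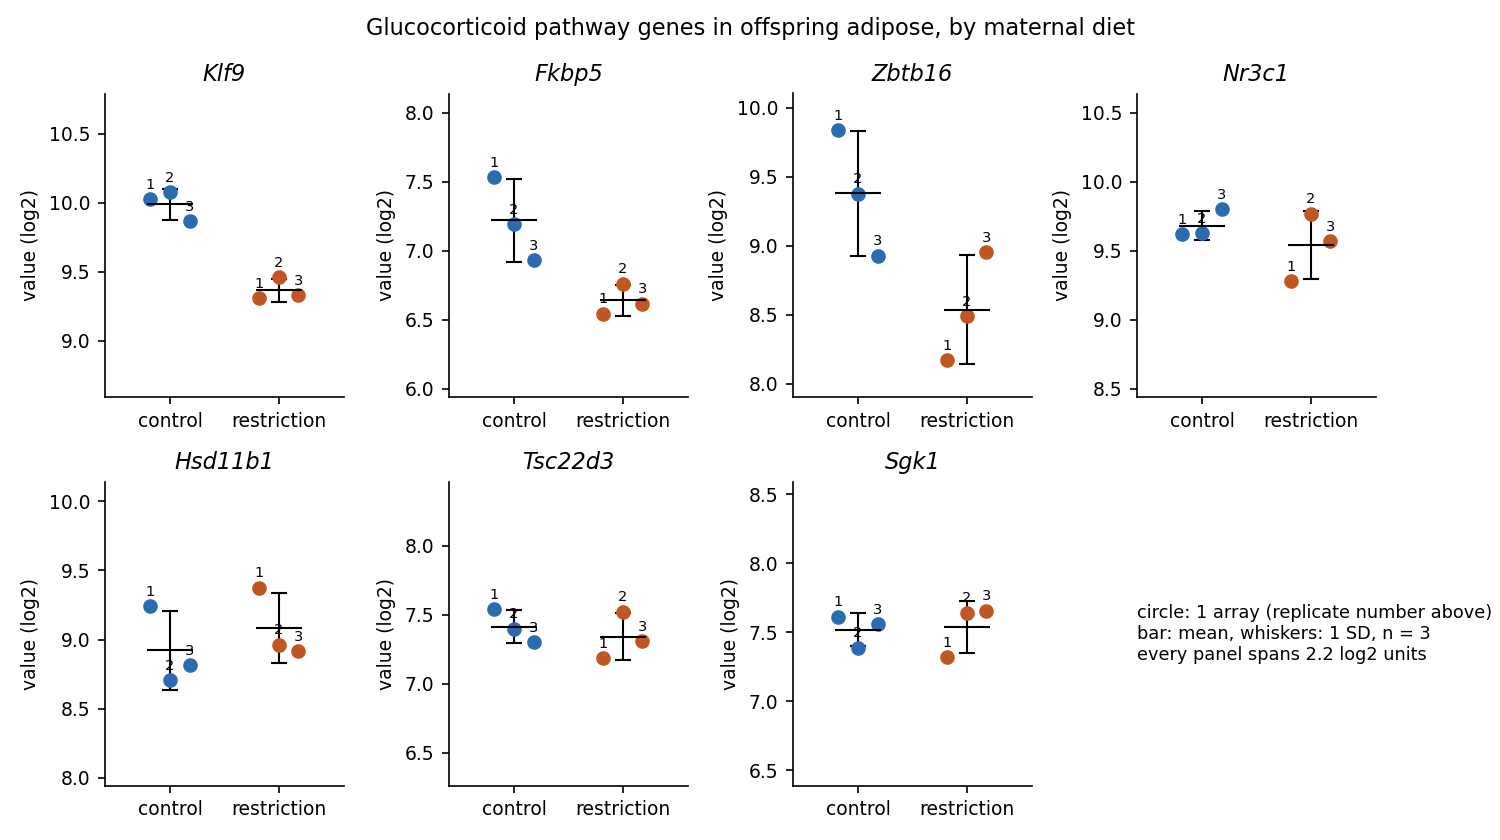
Value of each gene on each array (log2, vertical axis, 2.2 units in every panel) for control and restriction samples, with the mean and 1 SD as bar and whiskers, n = 3. Klf9 and Fkbp5 show no overlap between diets, Zbtb16 overlaps through 1 array of each group, and the other 4 genes overlap throughout.

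The receptor gene Nr3c1 read 9.28, 9.77 and 9.57 in restriction replicates 1, 2 and 3, and 9.62, 9.62 and 9.80 in control replicates 1, 2 and 3. Restriction replicate 1 was the lowest of the 6 arrays and the other restriction arrays lay within or just below the control range. The group means were 9.54 ± 0.25 and 9.68 ± 0.10 (SD, n = 3), a difference of -0.14 ± 0.14 (SE; adjusted p = 0.973 in limma). The 95% confidence interval ran from -0.48 to 0.19 and included 0. Without both restriction replicates 1 and 3, which held liver transcripts, the difference turned to 0.086, and with liver transcripts as a covariate to 0.075.

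Hsd11b1 read 9.38, 8.96 and 8.91 in the 3 restriction arrays and 9.24, 8.71 and 8.81 in the 3 controls. Replicate 1 was the highest array in each group, and the groups overlapped. The difference was 0.16 ± 0.19 (SE, n = 3; adjusted p = 0.982 in limma), with an interval of -0.29 to 0.61. The enzyme is also abundant in liver. Restriction replicates 1 and 3 held liver transcripts, and Hsd11b1 was the highest of the 6 arrays in replicate 1 and inside the control range in replicate 3. Without both of those arrays the difference was 0.043, and the part of liver RNA was not tested further.

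Klf9 encodes a zinc finger transcription factor that glucocorticoids induce directly and that also follows the daily clock. It read 9.31, 9.46 and 9.33 in the restriction arrays and 10.02, 10.08 and 9.86 in the controls. The highest restriction array was 0.41 log2 units below the lowest control, while the arrays within a group spanned 0.15 (restriction) and 0.21 (control). The means were 9.37 ± 0.08 and 9.99 ± 0.11 (SD, n = 3), a difference of -0.62 ± 0.09 (SE), or 1.54-fold lower, with a 95% interval of -0.84 to -0.41. It ranked 54th of all genes by p, and its adjusted p in limma was 0.136, short of the threshold. An exact permutation test over the 6 arrays gave p = 0.1 (two-sided), the smallest that 3 against 3 allows.

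The Klf9 difference kept its sign under all 17 alternatives, from -0.68 to -0.53, but its adjusted p ran from 0.0365 to 0.812. It passed only when restriction replicate 2, which held intestinal transcripts, was left out (adjusted p = 0.0365 in limma). That left restriction replicates 1 and 3, both of which held liver transcripts. In that setting 439 genes passed, against 43 with all arrays. With liver markers as a covariate the adjusted p of Klf9 was 0.497 in limma. The highest value, 0.812, came from leaving out 52 genes in rows of the table written with extra digits, which held 40 of the 43 genes that passed. None of the 7 genes lay in such a row. In restriction replicate 2 alone, without replicates 1 and 3, Klf9 was 0.53 lower than the controls.

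Fkbp5 encodes a co-chaperone of the receptor complex that lowers the receptor's affinity for hormone and is itself strongly induced by it. It read 6.54, 6.76 and 6.62 in the restriction arrays and 7.53, 7.19 and 6.93 in the controls. The restriction arrays lay close together and below all controls, by 0.17 log2 units at the nearest, while the controls were spread over 0.60. The means were 6.64 ± 0.11 and 7.22 ± 0.30 (SD, n = 3), a difference of -0.58 ± 0.16 (SE; 1.49-fold lower; adjusted p = 0.707 in limma). Without control replicate 1, the highest array, the difference was -0.42.

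Zbtb16 encodes the zinc finger protein PLZF, a transcription factor that is a sensitive glucocorticoid target in several tissues. It read 8.17, 8.49 and 8.95 in the restriction arrays and 9.84, 9.38 and 8.93 in the controls. Restriction replicate 3 and control replicate 3 were nearly equal, and the other arrays separated by diet. Zbtb16 had the greatest size of difference of the 7 genes, -0.84 ± 0.28 (SE, n = 3; 1.79-fold lower), and the widest spread, with an SD of 0.39 in the restriction group and 0.45 in the controls. Its adjusted p in limma was 0.789. Only 0.298% of all genes had a lower difference, against 0.816% for Klf9 and 0.992% for Fkbp5.

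The remaining target genes lay close to equality. Tsc22d3 encodes GILZ, a leucine zipper protein that mediates anti-inflammatory effects of glucocorticoids. It read 7.19, 7.52 and 7.31 under restriction and 7.54, 7.40 and 7.30 in the controls. The ranges overlapped almost wholly and the difference was -0.07 ± 0.11 (SE, n = 3; 95% interval -0.35 to 0.20; adjusted p = 0.991 in limma).

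Sgk1 encodes a serum- and glucocorticoid-induced kinase that regulates ion channels and transporters. It read 7.32, 7.64 and 7.66 under restriction and 7.61, 7.39 and 7.56 in the controls. No array of either group stood apart, and the difference was 0.02 ± 0.12 (SE, n = 3; 95% interval -0.27 to 0.31; adjusted p = 0.997 in limma). Its difference was the smallest in size of the 7. The full response element lay at 1 of the 6 Sgk1 start sites, and no link between motif and difference was tested. For Tsc22d3 and Sgk1 the sign of the difference turned when single arrays were left out.

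**Figure D2:**
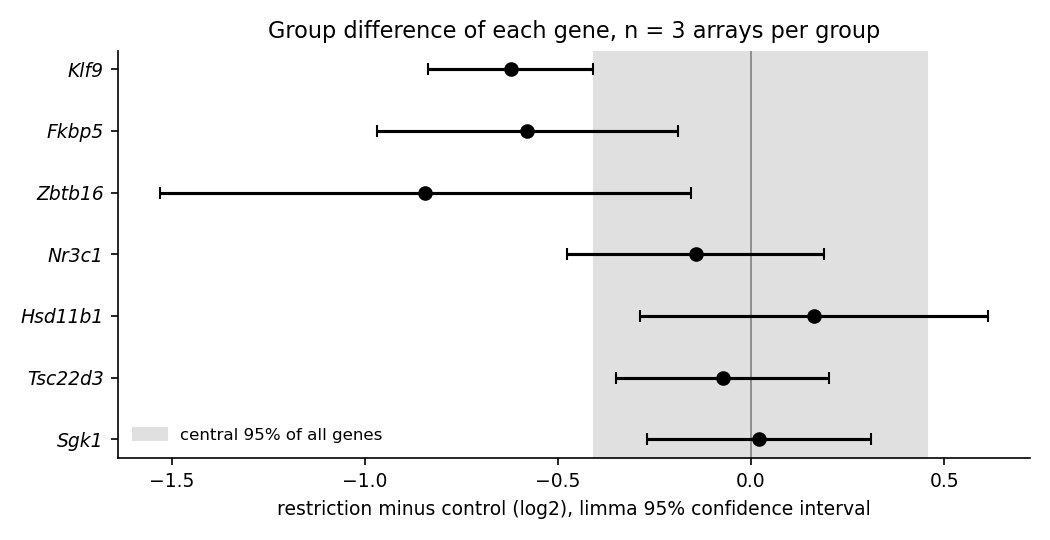
Restriction minus control difference of each gene (horizontal axis, log2) with limma's 95% confidence interval, n = 3 arrays per group; the grey band holds the central 95% of all 22180 genes. Klf9, Fkbp5 and Zbtb16 lie below the band with intervals of -0.84 to -0.41, -0.97 to -0.19 and -1.53 to -0.16, and the other 4 intervals include 0.

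Klf9, Fkbp5 and Zbtb16 did not follow one another exactly from array to array. After each gene's mean was subtracted, Klf9 and Fkbp5 lay a root mean square of 0.14 log2 units apart over the 6 arrays, Fkbp5 and Zbtb16 0.27, and Klf9 and Zbtb16 0.34. Sgk1 and Tsc22d3 lay 0.12 apart and both varied little. The distance of Sgk1 from Zbtb16 was 0.52, and that of Hsd11b1 from Zbtb16, the widest among the 7 genes, was 0.64.

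By the same distance, the genes nearest to each of the 3 most variable members were sought among all named genes. Nearest to Klf9 were Pik3r1, which encodes the regulatory subunit of phosphoinositide 3-kinase (distance 0.05, difference -0.63), and Terf2ip, a telomere protein gene (0.08, -0.57). Nearest to Fkbp5 were Sucla2, a subunit of succinyl-CoA synthetase (0.06, -0.54), and Fmo1, a flavin monooxygenase gene (0.08, -0.56). Nearest to Zbtb16 were Fbxo45, an F-box protein gene (0.21, -0.80), and the clock gene Per3 (0.21, -0.82). These are descriptions over 6 arrays, and none of the 6 genes passed an adjusted p of 0.05.

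Other genes of the pathway were taken from 4 lists. These were chosen with earlier results of these arrays known, so their counts are descriptions only. Of their 83 measured genes 0 reached an adjusted p under 0.05 in either direction in limma, against 0.194% of all genes. At an unadjusted p under 0.05, 15 were lower and 9 higher, where 3.53% of all genes were lower and 2.42% higher. Of 12 chaperones of the receptor complex 8 were higher and 4 lower, with a median difference of 0.02. Hspa8, the constitutive Hsp70 chaperone, differed by 0.27 ± 0.09 and Fkbp4, the co-chaperone that competes with the Fkbp5 product, by 0.19 ± 0.10 (SE, n = 3). With the mean of its probe sets Hspa8 differed by 0.51. Bag1, an Hsp70 exchange factor, differed by -0.37 ± 0.21, without overlap, and St13, an Hsp70-interacting protein, by -0.18 ± 0.13. Without restriction replicate 1 these 2 differences were -0.14 and -0.06. The Hspa8 arrays lay between 11.86 and 12.05 under restriction and between 11.59 and 11.78 in the controls, without overlap. That pattern was found in 3.53% of all genes in the upward direction. In the downward direction, that of Bag1, the share was 6.06%.

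Of 14 coregulators 10 were lower and 4 higher, with a median difference of -0.05. Nrip1, a corepressor of nuclear receptors with a known part in fat, read 9.30, 9.84 and 9.76 under restriction and 10.06, 10.13 and 10.23 in the controls. Ncoa1, the steroid receptor coactivator SRC-1, read 8.14, 8.53 and 8.56 against 8.94, 8.75 and 8.82. Both genes were lower in each restriction array than in any control, as were 6.06% of all genes. In both, restriction replicate 1 was the lowest. The differences were -0.50 ± 0.15 for Nrip1 and -0.43 ± 0.13 for Ncoa1 (SE, n = 3), with adjusted p = 0.751 and 0.759 in limma. Without restriction replicates 1 and 3 the Nrip1 difference was -0.30. Hdac3, a corepressor deacetylase, differed by -0.26 ± 0.10 and Ppargc1a, a coactivator of mitochondrial genes, by -0.34 ± 0.22, the latter running from -0.17 without control replicate 1 to -0.56 without control replicate 2.

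Among 8 genes of steroid supply and related receptors 4 were higher and 4 lower. H6pd encodes the enzyme that supplies NADPH to the Hsd11b1 product, and read 9.03, 8.94 and 9.13 under restriction and 9.24, 9.25 and 9.46 in the controls. Its arrays did not overlap, a pattern of 6.06% of all genes in this direction. They differed by -0.28 ± 0.10 (SE, n = 3; adjusted p = 0.789 in limma). Hsd11b2, the enzyme that inactivates the hormone, differed by 0.24 ± 0.10, from values of 5.20 to 5.65 that lay near the array medians of 5.44 to 5.57; without control replicate 1 it was 0.16. The mineralocorticoid receptor gene Nr3c2, whose product also binds glucocorticoids, differed by -0.15 ± 0.13.

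Serpina6 and Akr1d1 had the widest differences of that list and followed liver transcripts. Serpina6, which encodes the corticosteroid-binding globulin of blood and is made in liver, read 10.37 and 9.54 in restriction replicates 1 and 3, 4.76 in replicate 2, and 4.89 to 5.55 in the controls. Akr1d1, a liver steroid reductase gene, read 7.66 and 7.09 in restriction replicates 1 and 3, 5.03 in replicate 2, and 4.86 to 5.12 in the controls. The mean of 7 liver markers was 11.33 and 10.90 in restriction replicates 1 and 3 and 6.55 to 6.94 in the other 4 arrays. In restriction replicate 2, where 6 of the 7 liver markers were not above the highest control and Apoa1 was (7.44 against 5.50 to 6.27), Serpina6 was 0.46 lower than the controls and Akr1d1 0.055 higher. Both passed in limma when replicate 2 was left out (adjusted p = 0.00141 and 0.00265).

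**Figure D3:**
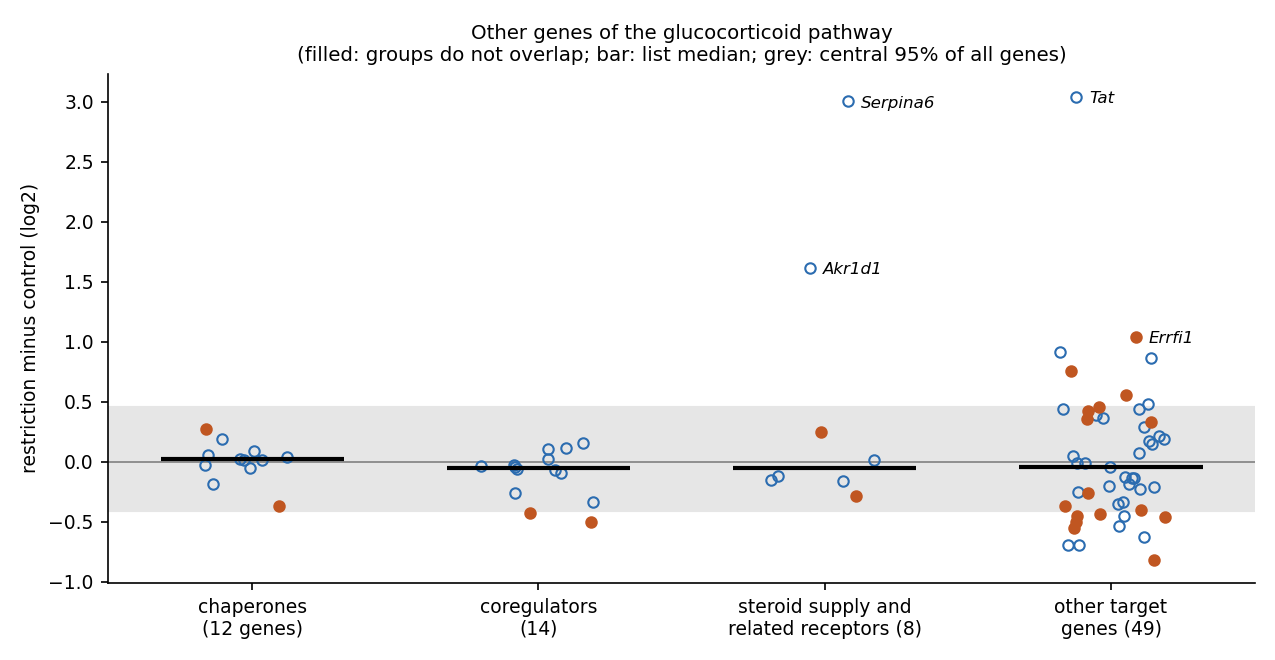
Restriction minus control difference (vertical axis, log2) of each measured gene of 4 pathway lists, with the list median as a bar, filled circles where the arrays of the diets do not overlap, and the central 95% of all genes in grey. List medians lie between -0.05 and 0.02, and Serpina6, Akr1d1 and Tat stand above 1.5.

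Beyond the 7 genes, 49 other known glucocorticoid targets were measured, of which 22 were higher and 27 lower under restriction, with a median difference of -0.04. Target genes with lower and with higher values were found side by side: the arrays did not overlap for 9 lower and 7 higher targets, against 6.06% and 3.53% of all genes. The 4 with the smallest p were Sult1a1, Lpin1, Cdkn1a and Anxa1. Sult1a1, a sulfotransferase gene, read 10.77, 10.62 and 10.55 under restriction and 11.33, 11.16 and 11.10 in the controls, a difference of -0.55 ± 0.10 (SE, n = 3; adjusted p = 0.313 in limma). Lpin1, which encodes the phosphatidate phosphatase of triglyceride synthesis, read 9.63, 10.33 and 10.05 against 10.90, 10.77 and 10.80, a difference of -0.82 ± 0.18. Without restriction replicates 1 and 3 the Lpin1 difference was -0.49. In both genes all 3 restriction arrays were below the controls.

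Cdkn1a, the cell cycle inhibitor p21, read 8.98, 8.36 and 8.75 under restriction and 8.05, 7.83 and 7.93 in the controls, a difference of 0.76 ± 0.17 (SE, n = 3; adjusted p = 0.547 in limma). Restriction replicates 1 and 3 were the highest arrays, and without both of them the difference was 0.42. Anxa1, an anti-inflammatory phospholipid-binding protein gene, read 11.37, 11.27 and 11.41 against 10.96, 11.00 and 11.10, a difference of 0.33 ± 0.08. Lpin1 and Cdkn1a each passed in 1 of 17 alternatives, and Sult1a1 and Anxa1 in 0. The adjusted p of Lpin1 and Cdkn1a was 0.0336 and 0.0183 in limma when restriction replicate 2 was left out. The restriction arrays kept in that setting both held liver transcripts.

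Further targets that did not overlap were picked out after their values were seen. Klf15, a glucocorticoid-induced factor of amino acid and lipid metabolism, was 0.51 lower and Glul, glutamine synthetase, 0.44 lower. The clock gene Per1, also a direct glucocorticoid target, was 0.45 lower. In the other direction Errfi1, a feedback inhibitor of the epidermal growth factor receptor, was 1.04 higher, the phosphatase gene Dusp1 0.56 higher and Zfp36, which encodes an RNA-decay factor, 0.46 higher. Those 3 are also early response genes, which other stimuli induce. The adjusted p of these 6 genes ran from 0.630 to 0.772 in limma.

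Tat, which encodes tyrosine aminotransferase, the classical glucocorticoid-induced enzyme of liver, had the array pattern of Serpina6. It read 11.25 and 10.38 in restriction replicates 1 and 3, 5.33 in replicate 2 and 5.58 to 6.22 in the controls. Igfbp1, another liver target, read 6.74 and 6.57 in those 2 arrays and 5.18 to 5.29 in the other 4. The adipokine gene Lep, a glucocorticoid-responsive gene of fat cells, differed by -0.01 ± 0.09 (SE, n = 3).

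Several marker groups differed between the diet groups in these arrays, and their part in the differences of Klf9, Fkbp5 and Zbtb16 was not tested beyond the settings given. All 11 measured adipocyte markers were lower under restriction, with a median difference of -0.14; the list mean was 11.55 to 11.78 under restriction and 11.95 to 12.09 in the controls. Adipoq, the adiponectin gene, passed among them but lay in a row with extra digits; without it the list means were 11.63 to 11.92 and 11.97 to 12.13. Fat cell transcripts were abundant in every array, with the lipid droplet gene Cidec at 12.77 to 13.09. Liver transcripts were abundant too in restriction replicates 1 and 3, where the liver marker Alb read 13.72 and 13.55. In the other arrays Alb read 9.17 to 9.98. All 7 measured brown fat markers were lower under restriction, with list means of 8.32, 5.75 and 6.63 in the 3 controls in order and 5.54 to 5.80 under restriction. Control replicate 1, the array richest in brown fat transcripts, was also the highest for Fkbp5 and Zbtb16. For Klf9 control replicate 2, with brown fat transcripts near the restriction level, was the highest. Control replicate 3, with the next highest brown fat mean (6.63), was the lowest control for Fkbp5, Zbtb16 and Klf9.

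The intestinal epithelium list had 11 of 12 members higher, with list means of 5.83 to 6.20 under restriction and 5.11 to 5.18 in the controls. Fabp1, which liver also makes, read 11.50 and 11.16 in restriction replicates 1 and 3 and 5.83 in replicate 2; without it the list means were 5.39, 6.23 and 5.35 under restriction and 5.07 to 5.18 in the controls. Fabp2, the intestinal fatty acid binding protein gene, was the 1 member to pass in limma (adjusted p = 0.00358). It read 7.15 to 7.31 under restriction and 5.04 to 5.50 in the controls. Without the rows with extra digits, or with the replicate number as a block, 0 genes passed, so Fabp2 did not pass there. Restriction replicate 2 held the defining gene Sis at 7.09, against 4.53 to 4.62 in the other 5 arrays. Muc13, Krt20, Cdh17 and Epcam were also highest there, Muc13 at 7.55 against 4.85 to 5.02 in the other 5. Fabp2, Lgals4 and Vil1 were higher in every restriction array than in any control, while Cdx1, Reg3b and Reg3g overlapped between the diets. Restriction replicate 2 also had the highest means of B and plasma cell markers (7.66 against 6.01 to 6.30) and of T and NK cell markers (6.78 against 5.62 to 5.80). Control replicate 1 had the lowest mean of mesothelial markers (6.35 against 7.32 to 7.84). With the liver markers as a covariate the differences were -0.53 for Klf9, -0.44 for Fkbp5 and -0.82 for Zbtb16, and without control replicate 1 they were -0.60, -0.42 and -0.62. Of 17 measured clock genes 12 were lower and 5 higher, 7 and 3 of them without overlap, against 6.06% and 3.53% of all genes. In limma 0 passed, against 0.194% of all genes. Dbp, a clock output factor, was at 9.02 to 9.11 under restriction and 9.94 to 10.37 in the controls, and Per3 at 7.18 to 7.64 against 8.04 to 8.44. In the other direction the clock activators Arntl and Npas2 differed by 0.81 and 0.66 and the output factor Hlf by 0.37. The sources used here do not give the hour of tissue collection, and its part in these differences was not tested.

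**Figure D4:**
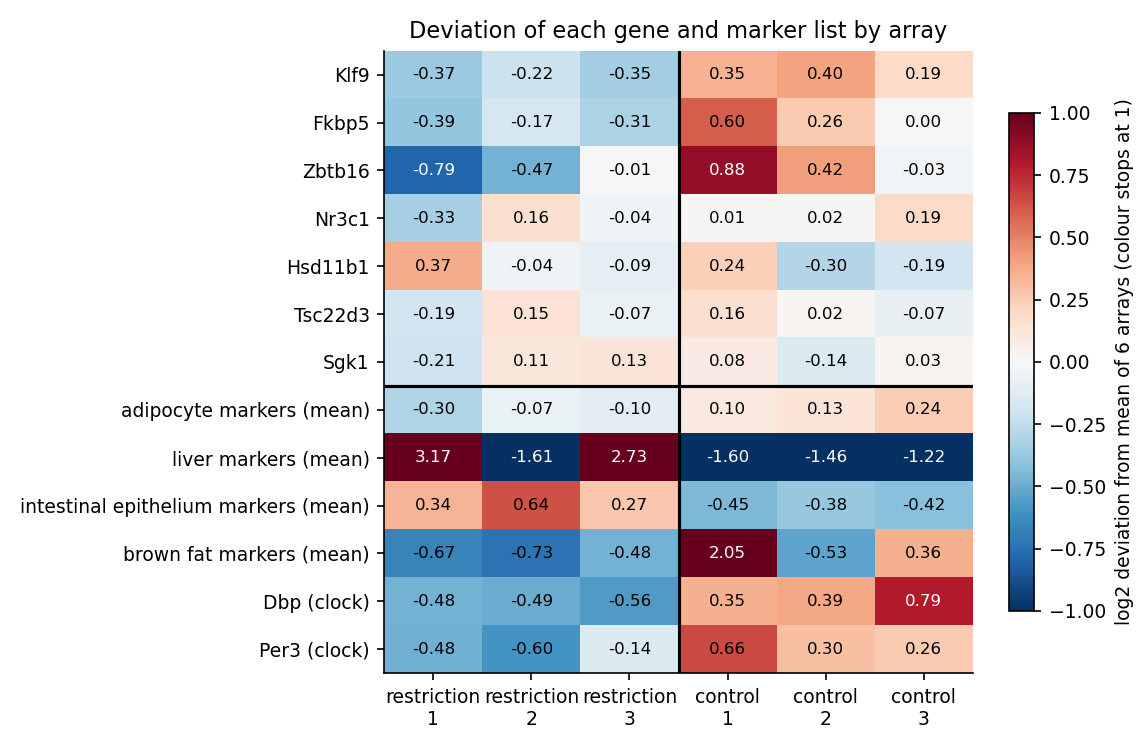
Deviation of each gene, and of the mean of each marker list, from its mean over 6 arrays (log2, printed in each cell, colour limited at 1), with restriction arrays left and control arrays right. Klf9, Fkbp5, Dbp, Per3 and the adipocyte marker mean are below their means in all 3 restriction arrays and above in all 3 controls. Fkbp5 is above by only 0.0029 in control replicate 3. Liver markers are high in restriction replicates 1 and 3 and brown fat markers in control replicate 1.

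Across the 17 alternatives the lower values of Klf9, Fkbp5 and Zbtb16 and the higher value of Hsd11b1 kept their sign. Fkbp5 ran from -0.72 to -0.42, Zbtb16 from -1.07 to -0.62 and Hsd11b1 from 0.02 to 0.33. Nr3c1 turned in 2 alternatives and Tsc22d3 and Sgk1 in 3 each.

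**Figure D5:**
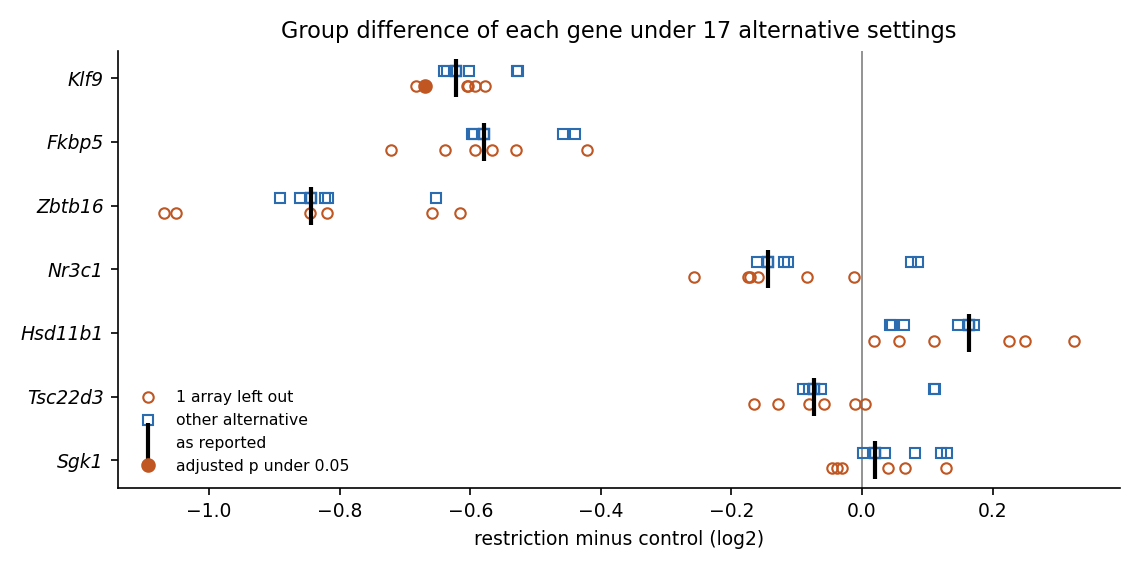
Restriction minus control difference of each gene (horizontal axis, log2) as reported (black tick), with 1 array left out (circles) and under the other alternatives (squares). The filled circle is the 1 case with an adjusted p under 0.05, Klf9 without restriction replicate 2; Klf9, Fkbp5 and Zbtb16 stay below 0 throughout.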

How the data were processed

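Expression was measured in adipose tissue of 6 samples on 1-colour arrays, 1 array per sample. The deposited table holds 33793 probe sets; its values were taken to be log2 from their range of 3.49 to 14.86, and the sources used here do not give the authors' normalization. The number of arrays limits the precision. Platform annotation gave 1 symbol for 23521 probe sets, and the brightest probe set stood for each of 22180 genes, with no filter on dim ones. Array medians ran from 5.44 to 5.57, so the deposited values were used without further normalization.

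The 2 diets were compared in limma 3.58.1 (lmFit, eBayes; R 4.3.3) with two-sided p-values adjusted by Benjamini-Hochberg across the whole gene table and a threshold of 0.05. No set test was run. On simulated data of 22180 genes with 3 arrays against 3, 98.6% of genes changed by 1 log2 unit were recovered. Of the calls 5.77% were false. The noise was that of the controls only, so recovery of genes that spread more under restriction was not tested. Recovery is given for no change under 1 log2 unit, so it does not cover differences such as the -0.84 of Zbtb16. In the real arrays Errfi1 (1.04) and Dbp (-1.02) did not pass (adjusted p = 0.678 and 0.0789 in limma). Fabp2 (1.98) and Adipoq (-1.22) did. The simulated share is therefore not the power for the real genes.

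The 7 genes, the lists and the alternatives were chosen with earlier results of these data known. Named genes were the 7 genes, for each of the 4 pathway lists any gene past the threshold and the 4 lowest p-values, and the 2 genes nearest in profile to each of the 3 most variable members, leaving out predicted loci, small RNAs and receptors of smell; further genes are marked as picked after their values were seen, or given as background. There were 17 alternatives. Some changed the scaling (quantile, median), the filter (dim genes left out) or the variance model (trend with robust, array weights). Others changed the unit (mean of probe sets, every probe set) or the design (replicate block, liver markers as covariate). The rest changed the data used (each array left out, restriction replicates 1 and 3 left out, 52 genes in rows with extra digits left out). Of all probe sets 64 had such a row, in which at least 1 value is not the shortest form of a single-precision number. Marker lists of B and plasma cells, T and NK cells, macrophages, mesothelium, endothelium, skeletal muscle, pancreas and adrenal cortex were also examined, and their median log2 differences were 0.20, 0.29, 0.16, 0.20, 0.05, 0.03, 0.01 and -0.04.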

Additional observations from a re-analysis of the deposited data

How the results depend on the processing

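With limma 43 genes passed over the whole table. The count was 0 with the replicate number as a block (1337 genes at an unadjusted p under 0.05), 0 without the rows with extra digits (1264), 6 without restriction replicates 1 and 3 together, and 24 to 439 when 1 array was left out, the 439 without restriction replicate 2. Deviations of same-numbered arrays from their group means had correlations across genes of -0.12, -0.095 and 0.078 for replicates 1, 2 and 3. Those of differently numbered arrays ran from -0.223 to 0.285. The labels do not explain the number, and 3 correlations are too few to settle whether it pairs the samples. Under the block Klf9 had an adjusted p of 0.479 in limma. Klf9 was the 1 member to pass under any alternative, without restriction replicate 2 (-0.67), which left the restriction arrays with liver transcripts. Its difference ran from -0.68 to -0.58 when 1 array was left out. Without restriction replicates 1 and 3 together Nr3c1 turned to 0.086 and Tsc22d3 to 0.11, and with the liver covariate to 0.075 and 0.11; the cause was not tested. With 1 array left out Tsc22d3 ran from -0.17 to 0.0039, Sgk1 from -0.046 to 0.13 and Nr3c1 from -0.26 to -0.01. The sources used here give no background signal, so low values such as those of Hsd11b2 may understate a difference.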

Other observations

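Genes of steroid synthesis in the adrenal cortex were also read. Cyp11a1, the side-chain cleavage enzyme, lay between 4.97 and 5.27 and Cyp11b1, the last enzyme of corticosterone synthesis, between 4.55 and 4.84, all below the array medians of 5.44 to 5.57. Star, the cholesterol carrier, at 5.99 to 6.90, Mc2r, the corticotropin receptor that fat cells also express, at 6.93 to 8.42, and Fdx1, an electron carrier, at 6.89 to 7.08 lay above them. Of the 8 genes 2 were higher and 6 lower under restriction, with a median difference of -0.04.

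Among the promoters of 42 other glucocorticoid targets found in the supplied RefSeq set, 0 held the full response element. In 6 genes they held the single arm AGAACA and in 7 the E-box, among them Per1, Dusp1 and Klf15. Of all genes listed there, 18.2% held the single arm and 6.86% the E-box.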
